A study of Mus musculus with 12 samples.

Results

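The chemokine receptor genes of T cells described here are Ccr2, Ccr4, Ccr6, Ccr7, Ccr8, Cxcr3, Cxcr4, Cxcr5 and Cxcr6. They were taken by name from a table of 55413 genes, and all 9 had counts in every one of 12 bulk RNA-seq libraries and passed the filter on low counts. The libraries were made from mouse regulatory T cells (Treg cells), the Foxp3-expressing CD4+ T cells that restrain other immune cells. Tumor pTreg (n = 3) and tumor tTreg (n = 5) were sorted on day 18 from tumors of Hepa1-6, a mouse hepatoma cell line. The tumors grew in TCRbd-/- hosts, which lack T cells of their own and keep their other immune cells. Before the tumor cells were given, with a gap of 3 days, the hosts received tTreg cells of CD45.1 Foxp3YFP-cre donors. They received with these, in 10 and 8 parts to 1 part of tTreg cells, CD4+ Foxp3- and CD8+ T cells of CD45.2 Foxp3YFP-cre donors. LN Treg (n = 4) were sorted from lymph nodes of mice with no tumor and no treatment, and whether those mice had received donor cells is not stated. All 3 groups carry one genotype label, Foxp3YFP-cre and TCRbd-/-, in which the Foxp3 gene drives a yellow fluorescent Cre fusion protein. In the usual sense of the terms, tTreg cells arise in the thymus and pTreg cells arise outside it from conventional CD4+ T cells. Ages are not given, and nothing says that replicates are separate animals, so p-values measure the spread between these samples, which may be technical.

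Chemokine receptors are G protein-coupled receptors that steer a T cell along gradients of small secreted proteins, the chemokines. Ccr7 and Cxcr5 direct cells within lymph nodes, to the T cell zone and to the B cell follicle. Cxcr3, Cxcr6 and Ccr2 are known on effector cells that enter inflamed tissue, Cxcr3 being a classical marker of T helper 1 cells. Ccr4, Ccr6 and Ccr8 are known on Treg cells of skin, gut and tumors, and Cxcr4 is found on most leukocytes.

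The libraries held 17964262 to 18180959 counts in tumor pTreg, 18107272 to 18510923 in tumor tTreg and 14573864 to 17323894 in LN Treg. Transcripts of T cells were a small part of the tumor libraries. The 18 pan-T genes (T cell receptor, CD3 and proximal signalling genes) summed to 1329 to 1353 CPM (counts scaled to a fixed library total) in tumor pTreg, 130 to 138 CPM in tumor tTreg and 6580 to 6757 CPM in LN Treg. The defining Treg genes Foxp3, Il2ra, Ikzf2 and Ctla4 were present in all groups, with sums of 251 to 260 CPM in tumor pTreg, 73.3 to 76.5 CPM in tumor tTreg and 2393 to 2490 CPM in LN Treg. Scaled to the pan-T genes, all 4 were lower in tumor pTreg than tumor tTreg, beside 97.0% of all genes. There Foxp3 had a log2 fold change of -2.10 (edgeR, adjusted p = 2.25e-25), beside a median of -3.33 over all genes. Against LN Treg, 3 were lower and 1 higher in tumor pTreg, beside 3.92% and 91.5% of all genes. Foxp3 was at -2.12 in that comparison (edgeR, adjusted p = 6.01e-30). In tumor tTreg 3 were higher than LN Treg and 0 lower, beside 96.8% and 0.968% of all genes. The tumor libraries held as well 5201 to 5574 CPM (tumor pTreg) and 7665 to 8012 CPM (tumor tTreg) of a 9-gene hepatoma and hepatocyte list, led by Alb and Trf, against 3.50 to 4.68 CPM in LN Treg. Alb, Trf, Krt8 and Krt18 carried these sums, and the other 5 genes of the list averaged at most 0.230 CPM in either tumor group and were not tested. In bulk RNA, fewer cells of a type and less RNA per cell cannot be told apart. Each receptor is therefore given on 2 scales, against the whole library and against the pan-T genes. Moving from the first scale to the second shifts the median log2 fold change of all genes by -3.33 for tumor pTreg against tumor tTreg, by 2.21 for tumor pTreg against LN Treg and by 5.53 for tumor tTreg against LN Treg.

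Of the 9 genes, 5 lie on chromosome 9 (Ccr2, Ccr4, Ccr8, Cxcr5 and Cxcr6), among them Cxcr6 at chr9:123806475-123811760 and Ccr2 at chr9:124101950-124113557 (GENCODE vM21, GRCm38). RefSeq promoter windows (GRCm38.p6, 250 bases before to 50 after the start, 300 in all) were matched for 7 of the 9, while Ccr7 and Cxcr5 are named only. Windows of 3 receptors that were over 5-fold higher in tumor pTreg than tumor tTreg, and that held a searched motif, are printed from 5′ to 3′ with the matches in capitals.
Cxcr6, chr9:123806227-123806526, plus strand: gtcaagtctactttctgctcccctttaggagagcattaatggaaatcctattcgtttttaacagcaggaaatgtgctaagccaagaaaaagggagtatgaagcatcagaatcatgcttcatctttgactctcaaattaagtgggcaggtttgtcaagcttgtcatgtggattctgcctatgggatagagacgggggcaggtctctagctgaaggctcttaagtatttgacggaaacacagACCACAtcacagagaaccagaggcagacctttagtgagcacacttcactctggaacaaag
Cxcr3, chrX:101734098-101734397, minus strand: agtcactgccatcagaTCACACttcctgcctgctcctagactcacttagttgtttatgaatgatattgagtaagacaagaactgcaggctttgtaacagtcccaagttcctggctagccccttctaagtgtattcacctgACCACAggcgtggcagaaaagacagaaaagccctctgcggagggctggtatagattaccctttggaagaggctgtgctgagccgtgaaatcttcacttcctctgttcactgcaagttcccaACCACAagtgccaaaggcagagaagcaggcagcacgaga
Ccr4, chr9:114496495-114496794, minus strand: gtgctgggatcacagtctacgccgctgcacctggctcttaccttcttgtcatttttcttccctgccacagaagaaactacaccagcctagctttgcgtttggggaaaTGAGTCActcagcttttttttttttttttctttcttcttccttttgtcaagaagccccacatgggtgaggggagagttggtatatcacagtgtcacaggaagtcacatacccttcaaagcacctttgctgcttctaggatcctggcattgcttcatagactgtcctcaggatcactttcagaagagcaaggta
The motifs searched on both strands, with no overlap among them, were TCACAC (a core T-box motif), ACCACA (a RUNX site) and TGANTCA (an AP-1 site). They occur in 14.3%, 16.7% and 7.79% of 32544 windows. The Cxcr6 window holds ACCACA 10 bases before the start. The Cxcr3 window holds TCACAC 234 bases before the start and ACCACA 110 bases before and 11 bases after it. The Ccr4 window holds an AP-1 match 143 bases before the start, and 1 of 2 Ccr6 windows holds a RUNX match 30 bases after it. The windows of Cxcr4, Ccr8 and Ccr2 hold none of these letters, and every match is a description of the sequence only.

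With whole-library scaling Cxcr6 was the receptor that set tumor pTreg furthest from tumor tTreg, and it was the only one of the 9 higher there with T cell scaling as well. It encodes the receptor of Cxcl16 and marks T cells that settle in tissues. In CPM Cxcr6 stood at 58.2, 63.0 and 64.8 in tumor pTreg, at 2.57, 1.97, 2.11, 1.42 and 1.49 in tumor tTreg, and at 18.4, 17.4, 17.9 and 17.3 in LN Treg. The 3 groups did not overlap, with tumor pTreg highest and tumor tTreg lowest. By the edgeR quasi-likelihood F test the level in tumor pTreg was 32.5-fold that in tumor tTreg (5.02 ± 0.08 SE as a log2 fold change, adjusted p = 1.31e-27) and 3.75-fold that in LN Treg (log2 fold change 1.91 ± 0.06 SE, adjusted p = 6.77e-22). Tumor tTreg was below LN Treg (log2 fold change -3.11 ± 0.10 SE, adjusted p = 7.21e-22). Set against T cell transcripts the order changed: per 100 pan-T counts, Cxcr6 had 4.38, 4.65 and 4.82 counts in tumor pTreg, 1.03 to 1.95 in tumor tTreg and 0.261 to 0.278 in LN Treg. On that scale both tumor groups lay above LN Treg with no overlap, and tumor pTreg stayed above tumor tTreg (log2 fold change 1.70, adjusted p = 5.56e-17). Transcripts of the CD8 T cell pair Cd8a and Cd8b1, genes of a cell type known to carry Cxcr6, ranked the groups the same way by their sum, with levels of 30.7 to 33.9 CPM in tumor pTreg, 0.939 to 1.26 CPM in tumor tTreg and 18.3 to 23.0 CPM in LN Treg. Singly, Cd8a was above LN Treg in tumor pTreg (log2 fold change 1.62) and Cd8b1 below it (-0.37, edgeR adjusted p = 0.00143). With T cell scaling both were called higher in tumor pTreg than tumor tTreg, beside 0.567% of all genes. The log2 fold changes were 1.82 for Cd8a and 1.08 for Cd8b1 (edgeR, adjusted p = 9.08e-13 and 5.95e-05). Their part in the Cxcr6 result was not tested.

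Cxcr3, the receptor of the interferon-induced chemokines Cxcl9, Cxcl10 and Cxcl11, was at 24.0, 22.2 and 24.1 CPM in tumor pTreg. It was at 4.05, 4.32, 3.84, 4.76 and 4.58 CPM in tumor tTreg, and at 25.1, 24.8, 26.4 and 28.4 CPM in LN Treg. Tumor tTreg lay far below both other groups. Its level in tumor pTreg was 5.46-fold that of tumor tTreg (edgeR, adjusted p = 1.21e-20). Tumor pTreg lay just below LN Treg in CPM with no overlap, but the fitted difference was within its error (log2 fold change -0.06 ± 0.06 SE, edgeR adjusted p = 0.389). Per 100 pan-T counts, Cxcr3 had 1.64 to 1.81 counts in tumor pTreg, 2.84 to 3.46 in tumor tTreg and 0.370 to 0.431 in LN Treg, so tumor tTreg became the highest group. With T cell scaling 97.0% of all genes were called lower in tumor pTreg than tumor tTreg. Of all genes 96.8% were called higher in tumor tTreg than LN Treg on that scale.

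Ccr2, the receptor of the monocyte-attracting chemokines Ccl2, Ccl7 and Ccl12, varied least across the groups with whole-library scaling, its largest log2 fold change being 0.77, but had the largest change of the 9 with T cell scaling (5.26 for tumor tTreg against LN Treg). It had 69.2, 78.1 and 77.9 CPM in tumor pTreg. The 5 tumor tTreg libraries had 46.3, 43.2, 41.8, 42.6 and 47.9 CPM, and the 4 LN Treg libraries 62.3, 55.8, 53.0 and 58.5 CPM. Tumor pTreg was the highest and tumor tTreg the lowest group, with no overlap. The level in tumor pTreg was 1.70-fold that in tumor tTreg (edgeR, adjusted p = 2.07e-13) and 1.40-fold that in LN Treg (adjusted p = 9.58e-10). Ccr2 is also the classical receptor of inflammatory monocytes, and the macrophage and monocyte list summed to 5339 to 5401 CPM in tumor pTreg, 5458 to 5778 CPM in tumor tTreg and 37.0 to 45.5 CPM in LN Treg. Of its 10 genes, tumor pTreg had 10 and tumor tTreg 9 called higher than LN Treg, beside 47.6% and 48.1% of all genes. The part of these cells in the tumor levels of Ccr2 was not tested. Per 100 pan-T counts, Ccr2 had 5.21 to 5.81 counts in tumor pTreg, 30.9 to 35.0 in tumor tTreg and 0.785 to 0.940 in LN Treg.

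Ccr8 and Ccr4, which are both known on tumor Treg cells, were lower in both tumor groups than in LN Treg. Ccr8, the receptor of Ccl1 and in the mouse of Ccl8, stood at 18.9, 20.9 and 20.7 CPM in tumor pTreg, at 2.52, 3.17, 2.97, 3.29 and 3.20 CPM in tumor tTreg, and at 33.2, 31.4, 31.7 and 32.1 CPM in LN Treg. The groups followed one another without overlap. Its level in tumor pTreg was 6.68-fold that in tumor tTreg (edgeR, adjusted p = 2.23e-21), and below LN Treg by a small margin (log2 fold change -0.57 ± 0.06 SE, adjusted p = 8.14e-10). Ccr4, the receptor of Ccl17 and Ccl22, was at 11.4, 11.8 and 10.6 CPM in tumor pTreg, at 2.03, 2.19, 2.05, 2.03 and 2.26 CPM in tumor tTreg, and at 47.9, 47.6, 45.7 and 44.6 CPM in LN Treg. The order of the groups was that of Ccr8, with a wider distance to LN Treg. The log2 fold change of Ccr4 in tumor pTreg was 2.42 against tumor tTreg and -1.94 against LN Treg (edgeR, adjusted p = 1.34e-18 and 2.66e-22). That in tumor tTreg against LN Treg was -4.36 (adjusted p = 1.21e-29). Per 100 pan-T counts, both genes were higher in the tumor groups. Ccr8 had 1.42 to 1.55 counts on that scale in tumor pTreg, 1.91 to 2.43 in tumor tTreg and 0.469 to 0.501 in LN Treg, and Ccr4 had 0.787 to 0.872, 1.47 to 1.68 and 0.676 to 0.723 in the same order of groups.

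Ccr7, Cxcr5 and Ccr6 were the receptors furthest below LN Treg in both tumor groups. Ccr7, which binds Ccl19 and Ccl21 and brings T cells into lymph nodes, was at 14.3, 12.6 and 13.8 CPM in tumor pTreg, at 9.03, 10.2, 8.37, 10.4 and 9.17 CPM in tumor tTreg, and at 255, 249.6, 255 and 251 CPM in LN Treg. Both tumor groups were far below LN Treg, and they lay closer to each other. Compared with LN Treg the level was 17.3-fold lower in tumor pTreg (edgeR, adjusted p = 1.83e-32) and 25.0-fold lower in tumor tTreg (adjusted p = 1.97e-35). The level in tumor pTreg was 1.45-fold that of tumor tTreg (adjusted p = 4.35e-07). Per 100 pan-T counts, Ccr7 had 0.930 to 1.08 counts in tumor pTreg, 6.21 to 7.83 in tumor tTreg and 3.73 to 3.85 in LN Treg, so on this scale tumor pTreg was low and tumor tTreg was above LN Treg. With T cell scaling its log2 fold change against LN Treg was -1.91 in tumor pTreg and 0.89 in tumor tTreg. Both lay below the medians of all genes, 2.32 and 5.63 in the same order.

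Cxcr5, the receptor of the follicle chemokine Cxcl13, had 1.76, 2.28 and 2.66 CPM in tumor pTreg, 0.109, 0.328, 0.324, 0.602 and 0.276 CPM in tumor tTreg, and 18.2, 22.2, 19.5 and 17.5 CPM in LN Treg. The tumor tTreg values rest on 2 to 11 counts a library. Ccr6, the receptor of Ccl20, had 1.05, 0.946 and 0.996 CPM in tumor pTreg, 0.0547, 0.437, 0.324, 0.219 and 0.166 CPM in tumor tTreg, and 29.0, 30.1, 29.4 and 25.6 CPM in LN Treg. The tumor tTreg values rest on 1 to 8 counts a library, against 17 to 19 in tumor pTreg and 438 to 510 in LN Treg. For both genes all tumor pTreg libraries lay above all tumor tTreg libraries and all tumor libraries lay below LN Treg. For Ccr6 the log2 fold change was 2.03 ± 0.34 SE between tumor pTreg and tumor tTreg (edgeR, adjusted p = 1.35e-05), and for Cxcr5 it was 2.75 ± 0.29 SE (adjusted p = 3.31e-09). Ccr6 was the receptor furthest below LN Treg, with a log2 fold change of -4.72 in tumor pTreg and -6.75 in tumor tTreg (adjusted p = 3.54e-23 and 1.88e-26). With T cell scaling, the log2 fold change of Ccr6 against LN Treg was still negative, at -2.52 for tumor pTreg and -1.25 for tumor tTreg (adjusted p = 1.55e-16 and 5.40e-05), and Cxcr5 was lower in tumor pTreg (-0.80, adjusted p = 8.58e-06) and uncalled in tumor tTreg (-0.25, adjusted p = 0.391). B cells also carry Cxcr5, Ccr6 and Ccr7. The 6-gene B cell list summed to 41.3 to 43.4 CPM in tumor pTreg, 35.1 to 40.5 CPM in tumor tTreg and 16.0 to 18.2 CPM in LN Treg, of which Cd22 made 38.7, 34.9 and 4.61 CPM. Its defining gene Ms4a1 averaged 0.110 CPM in tumor pTreg, 0.0983 CPM in tumor tTreg and 1.18 CPM in LN Treg. The part of B cell RNA was not tested.

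Cxcr4, the receptor of Cxcl12 that holds cells in bone marrow and lymphoid tissue, was at 111, 106 and 103 CPM in tumor pTreg, at 67.9, 70.3, 70.3, 65.8 and 68.4 CPM in tumor tTreg, and at 222, 216, 211 and 213 CPM in LN Treg. The 3 groups were tight and did not overlap. Its level in tumor pTreg was 1.57-fold that of tumor tTreg (edgeR, adjusted p = 1.14e-15). Compared with LN Treg it was 1.88-fold lower in tumor pTreg and 2.94-fold lower in tumor tTreg (adjusted p = 1.55e-20 and 1.09e-27). Cxcr4 is found on macrophages as well, whose markers were plentiful in both tumor groups, and their part was not tested. Per 100 pan-T counts, it had 7.70 to 8.36 counts in tumor pTreg, 47.8 to 53.9 in tumor tTreg and 3.12 to 3.34 in LN Treg.

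**Figure D1:**
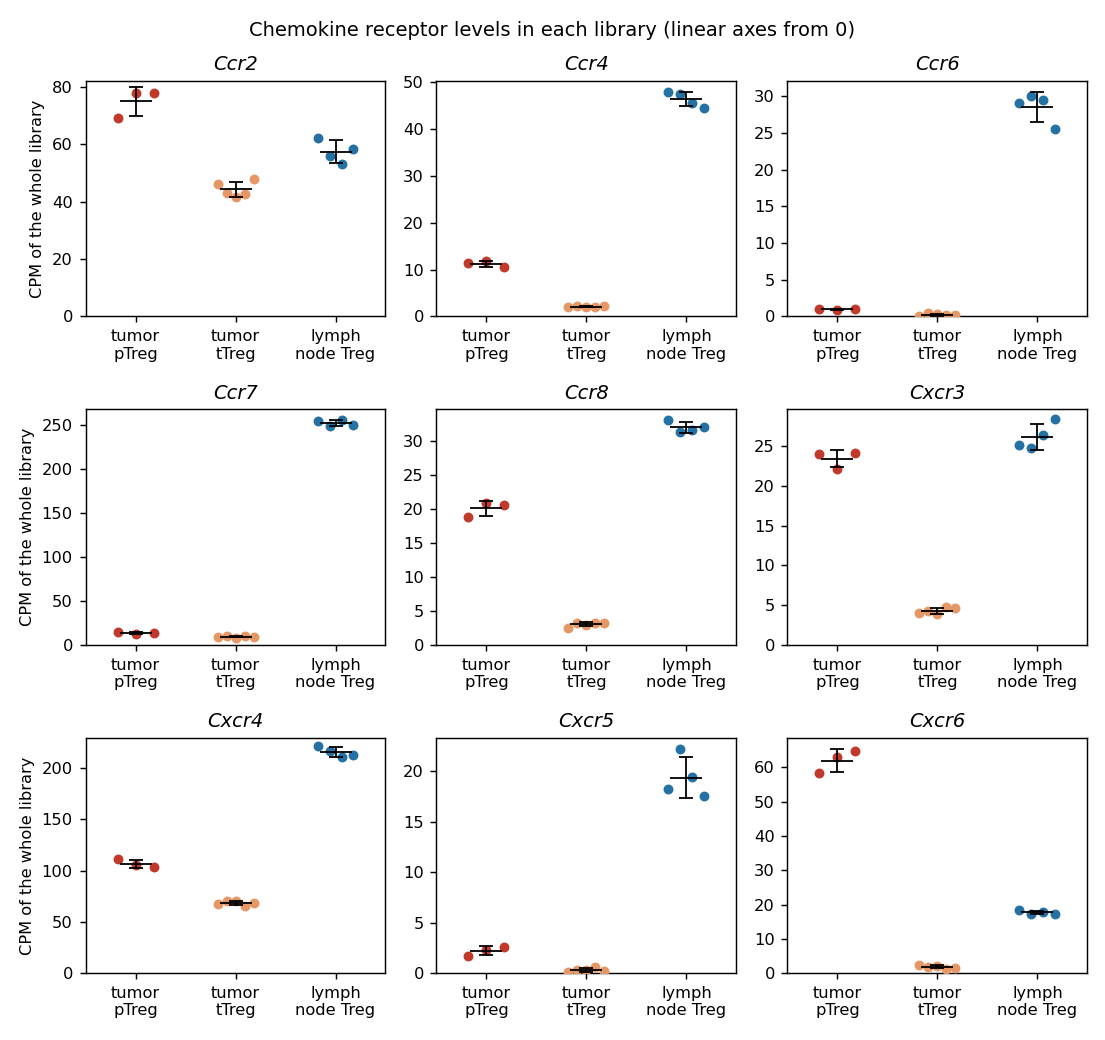
Level of each of the 9 receptors in CPM (linear axes from 0, one panel a gene) in tumor pTreg, tumor tTreg and LN Treg. Points are libraries and bars are the mean and SD of 3, 5 and 4 libraries; in all 9 panels every tumor pTreg point lies above every tumor tTreg point, and Cxcr6 and Ccr2 are the panels in which tumor pTreg lies above LN Treg.

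Counted over the 9 receptors, all 9 were called higher in tumor pTreg than tumor tTreg, where 26.8% of the 15705 genes tested were called higher, 25.3% lower and 52.1% in either direction. Their log2 fold changes ran from 0.53 for Ccr7 to 5.02 for Cxcr6, with a median of 2.42, beside a median of -0.008 over all genes. In CPM every tumor pTreg library was above every tumor tTreg library for 9 of 9, against 24.4% of all genes. With T cell scaling the picture turned: 1 receptor was called higher, Cxcr6, and 7 lower, beside 0.567% and 97.0% of all genes. Cxcr5 was not called on that scale (log2 fold change -0.55 ± 0.33 SE, edgeR adjusted p = 0.104). Measured from the median of all genes on that scale, all 9 stood above it, from 0.54 for Ccr7 to 5.03 for Cxcr6. Taking off that median gives back the whole-library differences, which are also 0.54 and 5.03 from their own median. It is thus the whole-library result again and no separate support.

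Against LN Treg the 2 tumor groups share the same 4 control libraries, so their changes are given side by side. In tumor pTreg 8 of 9 receptors were called, beside 87.5% of all genes. Higher were 2 (Ccr2 and Cxcr6), beside 47.6% of all genes, and lower were 6, beside 39.8%. In CPM every tumor pTreg library was above every LN Treg library for 2 receptors, beside 43.6% of all genes, and below for 7, beside 42.3%. In tumor tTreg all 9 were called lower, beside 42.3% of all genes called lower, 48.1% called higher and 90.3% called in either direction. In CPM every tumor tTreg library was below every LN Treg library for 9 of 9, beside 42.0% of all genes. The median log2 fold change of the 9 was -0.91 in tumor pTreg and -3.31 in tumor tTreg, beside 0.12 and 0.10 over all genes. With T cell scaling 6 receptors were called higher and 3 lower (Ccr6, Ccr7 and Cxcr5) in tumor pTreg, beside 91.5% and 3.92% of all genes. On the same scale 7 were called higher and 1 lower (Ccr6) in tumor tTreg, beside 96.8% and 0.968%. Lower than LN Treg on both scales were thus Ccr6 in both tumor groups and Ccr7 and Cxcr5 in tumor pTreg.

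**Figure D2:**
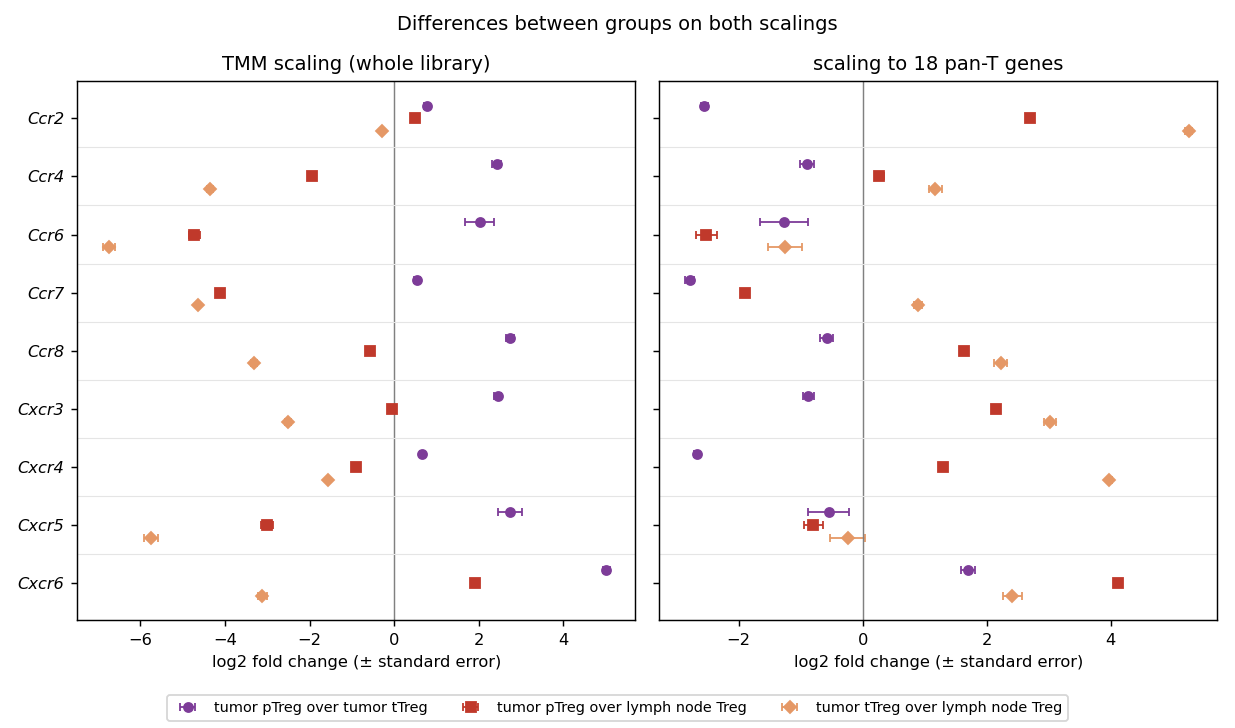
Log2 fold change with its SE (edgeR) for each receptor in 3 comparisons, with whole-library TMM scaling in one panel and scaling to 18 pan-T genes in the other. With TMM scaling all 9 receptors are above 0 for tumor pTreg over tumor tTreg, and with T cell scaling Cxcr6 alone is, at 1.70.

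Between genes, levels were compared as FPKM, which divide by transcript length. The summed FPKM of the 9 receptors averaged 214 ± 2.21 in tumor pTreg, 89.9 ± 2.40 in tumor tTreg and 509 ± 11.8 in LN Treg (SD, n = 3, 5 and 4). Cxcr4 led in every group by FPKM and took 44.6 ± 2.27% of the sum in tumor pTreg, 68.0 ± 1.20% in tumor tTreg and 39.4 ± 0.748% in LN Treg. By FPKM the receptor in second place differed by group. It was Cxcr6 in tumor pTreg (18.2 ± 0.871%, against 1.34 ± 0.354% in tumor tTreg and 2.20 ± 0.0343% in LN Treg). In tumor tTreg it was Ccr2 (15.5%, against 11.2% in tumor pTreg and 3.82% in LN Treg). In LN Treg it was Ccr7 (29.7%, against 3.79% in tumor pTreg and 6.30% in tumor tTreg). Taken from expected counts, with no division by length, Ccr7 led in LN Treg with 36.3%, ahead of Cxcr4 with 31.0%. By the same measure Ccr2 was second in tumor pTreg with 23.8%, ahead of Cxcr6 with 19.6%, and second in tumor tTreg with 33.0%.

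Within tumor pTreg the mean FPKM fell in the order Cxcr4 (95.5), Cxcr6 (38.9), Ccr2 (24.0), Ccr8 (23.3), Cxcr3 (16.4), Ccr7 (8.11), Ccr4 (4.62), Cxcr5 (1.76) and Ccr6 (1.46). The neighbours Ccr2 and Ccr8 overlapped over libraries, as did Cxcr5 and Ccr6. Within tumor tTreg the order was Cxcr4 (61.1), Ccr2 (14.0), Ccr7 (5.66), Ccr8 (3.52), Cxcr3 (3.04), Cxcr6 (1.20), Ccr4 (0.910), Ccr6 (0.336) and Cxcr5 (0.142). There Ccr8 overlapped with Cxcr3, Cxcr6 with Ccr4, and Ccr6 with Cxcr5. Within LN Treg, Cxcr4 (200.6) and Ccr7 (151) stood apart from Ccr6 (38.7) and Ccr8 (37.1), which overlapped. Ccr2, Ccr4, Cxcr3, Cxcr5 and Cxcr6 followed between 19.4 and 11.2 FPKM, each overlapping with its neighbour. The FPKM of Ccr6 and Cxcr5 are less sure, because the FPKM a library had per CPM varied for the same gene. For Ccr6 this ratio ran from 0.804 to 1.88 in tumor pTreg, 0.822 to 3.98 in tumor tTreg and 1.31 to 1.40 in LN Treg, whereas for Ccr7 it stayed between 0.594 and 0.602 throughout. Ccr6 has 9 annotated transcripts and Ccr7 has 1, and the part of transcript choice was not tested.

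**Figure D3:**
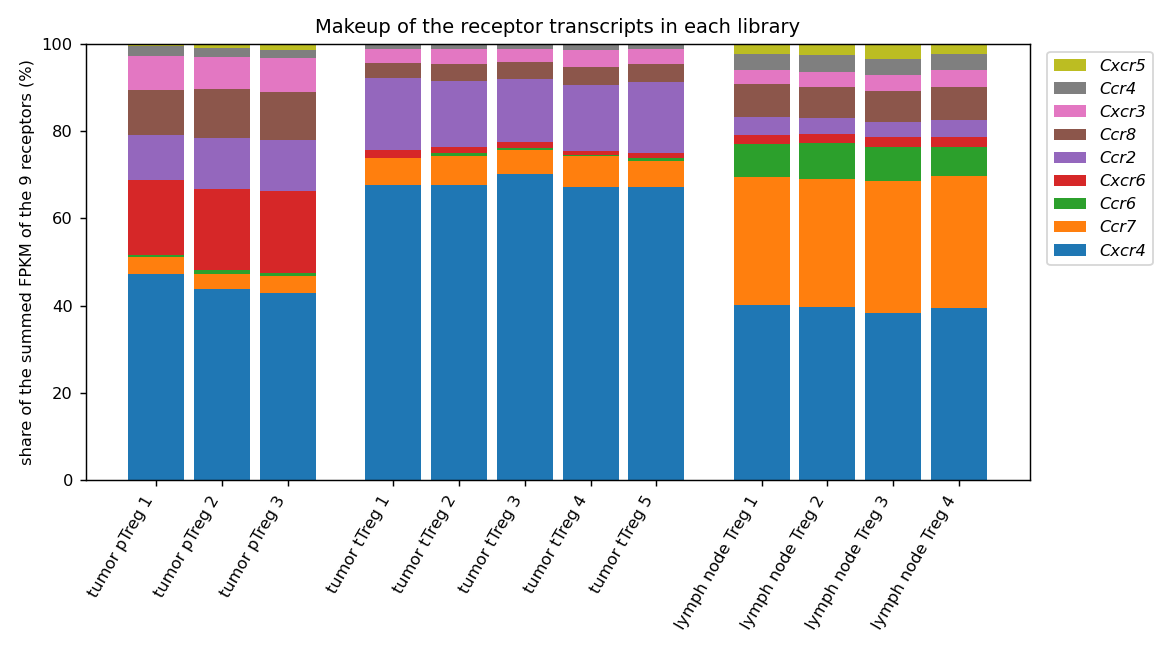
Share of the summed FPKM of the 9 receptors taken by each receptor, in percent, for each of the 12 libraries. Cxcr6 takes 18.2% on average in tumor pTreg, Cxcr4 68.0% in tumor tTreg and Ccr7 29.7% in LN Treg.

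The genes whose pattern over the 12 libraries was most like that of each receptor were sought among 11089 genes by Pearson correlation of log2 CPM. The libraries fall into 3 groups and share their composition, so these values describe group levels and carry no test. For Cxcr6 the nearest were Il18rap, an IL-18 receptor chain (r = 0.998), Baz1a (0.994) and Gzmb, granzyme B (0.992), and 120 genes exceeded 0.9. Il18rap averaged 82.2 CPM in tumor pTreg, 7.74 CPM in tumor tTreg and 32.7 CPM in LN Treg. For Ccr2 the nearest were Ahnak, Nfkbid and Ccn4 (r = 0.988, 0.977 and 0.976), with 74 genes above 0.9, the fewest of any receptor. For Cxcr3 they were Gramd3, Cd40lg, the CD40 ligand, and Themis, a T cell signalling gene (r = 0.997 each), with 486 genes above 0.9. For Ccr8 they included Atp2b4 and Ptpn22, a lymphocyte phosphatase (r = 0.999 each), with 839. The other receptors followed patterns shared by 2962 to 3995 genes, led by Cd5, itself a pan-T gene, for Ccr4, Stk38 for Ccr7, Zc3h14 for Ccr6, Rasal3 for Cxcr4 and B3gnt2 for Cxcr5. Among the receptors themselves, the closest pair was Ccr6 and Ccr7 (r = 0.994). Cxcr4 and Cxcr5, Ccr8 and Cxcr3, and Ccr4 and Cxcr4 came next (0.990 each). Cxcr6 was closest to Ccr2 (0.954), while Ccr7 and Ccr2 were least alike (0.218).

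Most ligands of these receptors are known as products of macrophages, stromal and other cells, not of T cells. Of a list of 16 ligands 13 passed the filter. In tumor pTreg, 2 were called higher and 9 lower than in tumor tTreg, with a median log2 fold change of -0.25 over the 13, beside 26.8% of all genes higher and 25.3% lower. All 13 were called higher than LN Treg in both tumor groups, beside 47.6% of all genes for tumor pTreg and 48.1% for tumor tTreg. With T cell scaling all 13 were again called higher in both, beside 91.5% and 96.8% of all genes. Cxcl16, the ligand of Cxcr6, averaged 248 CPM in tumor pTreg, 291 CPM in tumor tTreg and 0.998 CPM in LN Treg. The Ccr2 ligands Ccl2 and Ccl7 averaged 183 and 234 CPM in tumor pTreg, 218 and 274 CPM in tumor tTreg, and 0.121 and 0.0871 CPM in LN Treg. These and the Cxcr3 ligands Cxcl9 (185, 215 and 0.788 CPM in the same order of groups) and Cxcl10 (117, 152 and 13.6 CPM) were plentiful in the tumor libraries. The Ccr4 ligands were lower, with Ccl22 at 10.2, 13.9 and 1.32 CPM in tumor pTreg, tumor tTreg and LN Treg, and Ccl17 at 4.35, 6.29 and 0.0289 CPM, the last resting on 2 counts.

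The ligand furthest apart between the tumor groups was Ccl1, a ligand of Ccr8, at 10.4 ± 0.454 CPM in tumor pTreg and 0.307 ± 0.0853 CPM in tumor tTreg (SD, n = 3 and 5). Its log2 fold change was 5.06 (edgeR, adjusted p = 7.70e-20), and it was the only ligand called higher in tumor pTreg with T cell scaling too (1.76, adjusted p = 9.94e-09). On that scale the other 12 ligands tested were called lower, beside 0.567% of all genes higher and 97.0% lower. Ccl8 was called higher at 21.6 CPM in tumor pTreg and 15.0 CPM in tumor tTreg (0.54 as a log2 fold change, adjusted p = 6.22e-08), a direction that turned with T cell scaling (-2.79). Lower in tumor pTreg were Cxcl12, the ligand of Cxcr4, at 1.79 CPM against 7.99 CPM in tumor tTreg (-2.15 as a log2 fold change, adjusted p = 1.03e-13), and Cxcl13, the ligand of Cxcr5, at 0.607 CPM against 4.05 CPM (-2.71, adjusted p = 1.98e-09). A 6-gene fibroblast list, of a cell type known to make Cxcl12, summed to 127 to 150 CPM in tumor pTreg and 658 to 781 CPM in tumor tTreg, and its part was not tested. The Ccr7 and Ccr6 ligands Ccl19, Ccl21a and Ccl20 did not pass the filter, with means of at most 0.148 CPM in any group.

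**Figure D4:**
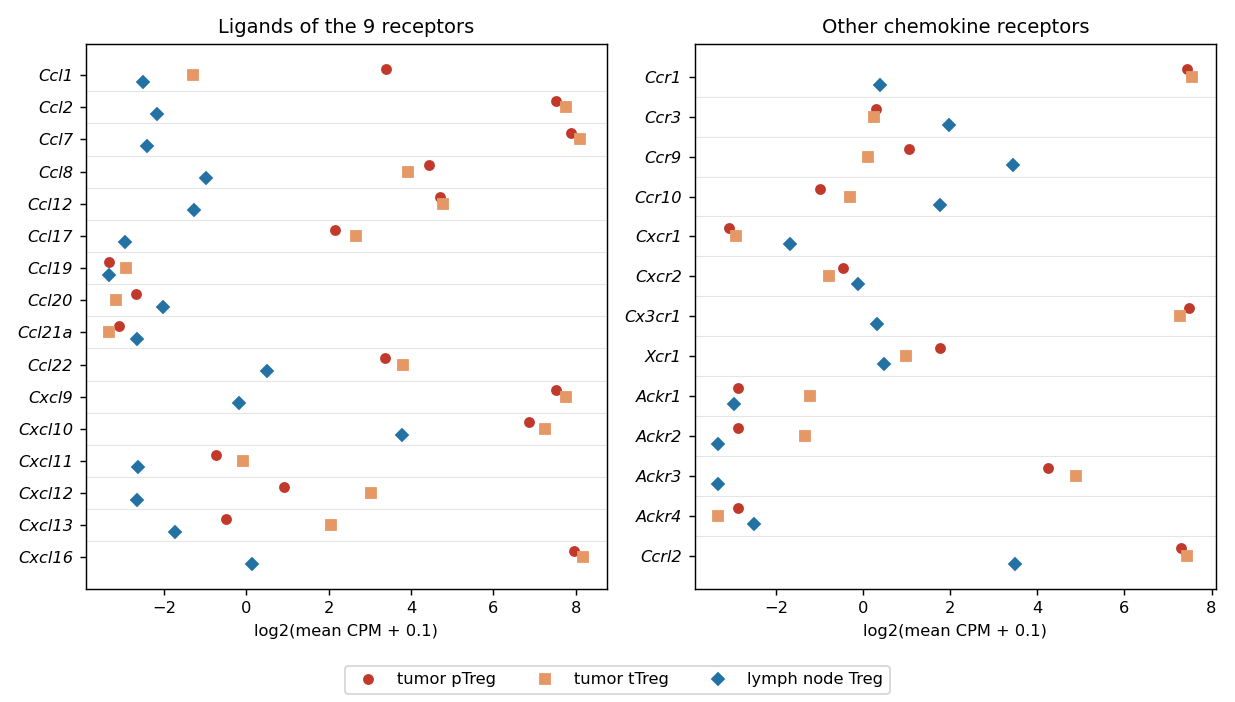
Mean level of the 16 ligands and of 13 of the 14 other chemokine receptors listed in tumor pTreg, tumor tTreg and LN Treg, as log2 of mean CPM + 0.1; each dot is a group mean. Cxcl16, Ccl2, Ccl7, Cxcl9, Ccr1 and Cx3cr1 stand above 100 CPM in both tumor groups and at or below 1.21 CPM in LN Treg.

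Other chemokine receptors were called in both directions with whole-library scaling. Of 14 on the list, 10 passed the filter. In tumor pTreg 4 were called higher and 3 lower than in tumor tTreg, beside 26.8% and 25.3% of all genes. The median log2 fold change of the 10 was 0.09. With T cell scaling all 10 were called lower, as were 97.0% of all genes. With whole-library scaling 47.6% of all genes were higher and 39.8% lower than LN Treg in tumor pTreg, and 48.1% and 42.3% in tumor tTreg. Of the 10 receptors, 6 were called higher and 3 lower in each tumor group. The abundant ones are known on macrophages: Ccr1 averaged 174 CPM in tumor pTreg, 188 CPM in tumor tTreg and 1.21 CPM in LN Treg, and Cx3cr1 averaged 180.2, 156 and 1.14 CPM. Ackr3, a scavenging receptor of Cxcl12, averaged 19.0 CPM in tumor pTreg and 29.4 CPM in tumor tTreg, and had 0 counts in the 4 LN Treg libraries. Macrophage markers were plentiful in both tumor groups, as given above, and their part was not tested.

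Receptors for attractants outside the chemokine family behaved differently by gene. Of 9 tested from a list of 10, 6 were called higher and 1 lower in tumor pTreg than tumor tTreg, beside 26.8% and 25.3% of all genes. S1pr1, the sphingosine 1-phosphate receptor that lets T cells leave lymph nodes, averaged 52.1 CPM in tumor pTreg, 37.4 CPM in tumor tTreg and 368 CPM in LN Treg. S1pr4 averaged 14.8, 1.71 and 81.7 CPM in the same order, and its log2 fold change between the tumor groups was 3.12 (edgeR, adjusted p = 9.68e-21). Gpr183, a receptor of oxysterols that places lymphocytes in lymphoid tissue, averaged 46.5, 32.2 and 43.2 CPM. On the T cell scale 8 of the 9 were called lower in tumor pTreg than tumor tTreg, beside 97.0% of all genes, and S1pr4 was not called (log2 fold change -0.20, adjusted p = 0.113).

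Genes that carry the receptor signal inside the cell were mostly higher in tumor pTreg than tumor tTreg. Of 16 relay genes (G protein subunits, PI3K gamma, Rac, Rap and integrin partners) 15 were called higher and Gnb2 was called lower. Of all genes 26.8% were higher and 25.3% lower. The median log2 fold change of the 16 was 0.52. Against LN Treg, 13 relay genes were called lower and 3 higher in each tumor group. Of all genes 39.8% were lower and 47.6% higher in tumor pTreg, and 42.3% and 48.1% in tumor tTreg. With T cell scaling this turned to 1 relay gene lower and 14 higher in tumor pTreg and to 15 higher in tumor tTreg. On that scale 91.5% and 96.8% of all genes were higher. Rac2, a small GTPase of blood cells, averaged 295 CPM in tumor pTreg, 113 CPM in tumor tTreg and 1033 CPM in LN Treg. Dock2, the exchange factor that activates Rac downstream of chemokine receptors, averaged 239, 109.9 and 665 CPM, and Coro1a, an actin regulator, averaged 327, 173 and 1301 CPM. With T cell scaling all 16 were called lower in tumor pTreg than tumor tTreg, a scale on which 97.0% of all genes were.

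The 13 genes listed that shut the signal off were receptor kinases, arrestins and RGS proteins, which speed the return of G proteins to rest. Of these, 9 were called higher in tumor pTreg than tumor tTreg, beside 26.8% of all genes, and 4 were not called. With T cell scaling 1 was called higher and 12 lower, beside 0.567% and 97.0% of all genes. Rgs16, an RGS protein of activated T cells, stood apart at 226 ± 3.76 CPM in tumor pTreg, 16.5 ± 1.06 CPM in tumor tTreg and 112 ± 5.51 CPM in LN Treg (SD, n = 3, 5 and 4). Its log2 fold change between the tumor groups was 3.78 (edgeR, adjusted p = 2.88e-31), and it was the 1 gene of this list called higher in tumor pTreg with T cell scaling as well (0.46, adjusted p = 2.88e-10). Against LN Treg, 6 of the 13 were higher, 6 lower and 1 uncalled in tumor pTreg, beside 47.6% of all genes higher and 39.8% lower. In tumor tTreg 5 were higher and 8 lower, beside 48.1% and 42.3% of all genes. Grk3, a receptor kinase, averaged 39.4 CPM in tumor pTreg, 38.0 CPM in tumor tTreg and 1.78 CPM in LN Treg, while Grk2 averaged 244, 181 and 533 CPM and Grk6 averaged 97.8, 67.3 and 356 CPM.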

How the data were processed

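Bulk RNA-seq of sorted mouse Treg cells was deposited as tables of expected counts and FPKM for the same 12 libraries. Per the submitters' processing notes, the tools were STAR 2.7.11a, RSEM 1.3.3 and DESeq2, and the build was GRCm38 (mm10); the sources used here do not give the gene annotation. The deposited FPKM, which the authors scaled to transcript length and library size, served mainly to compare levels between genes. They also entered the search for outlying libraries and some of the alternative tests with limma. The deposited expected counts, already whole numbers in the table, were tested with edgeR 4.0.16 (R 4.3.3, quasi-likelihood F test, TMM factors, filterByExpr by group, all libraries in 1 fit). Of 27279 genes with any count, 15705 were tested. Adjusted p-values are Benjamini-Hochberg values over all genes tested, and a gene was called below 0.05. CPM use library totals. T cell scaling replaces TMM factors by the summed counts of 18 pan-T genes. The procedure was tested on simulated data.

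All 9 receptors were named; from the other lists, up to 4 genes with the smallest p in a comparison, ligands by level, and the 2 most abundant markers were eligible, and other marker or pathway genes named (Foxp3, Il2ra, Ikzf2, Ctla4, Cd8a, Cd8b1, Ms4a1, Gnb2 and Gpr183 among them) were chosen for their role or after their values were seen. Most-like genes had a mean of at least 5 CPM. Some genes that this rule names are not reported here. The receptors and lists were chosen with earlier results of these data known. Alternatives were other scalings, filters, tools (DESeq2 1.42.0, limma 3.58.1), a replicate block and leaving out each library.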

Additional observations from a re-analysis of the deposited data

Results flagged for a closer look

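The share of Cxcr4 in the summed FPKM of the 9 receptors was 70.1% in tumor tTreg replicate 3, while the other 4 tumor tTreg libraries lay between 67.3% and 67.6%, so this library stands far from its group. Its Cxcr4 level was the highest of the group, at 70.34 CPM beside 70.27 CPM in replicate 2, and at 63.26 FPKM beside 62.75 FPKM in replicate 5. It was the 1 value so placed among 54 sets of libraries examined for CPM, FPKM and share, and chance alone places about 1 in 20 sets so. Leaving this library out changed no call of the 9 receptors.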

How the results depend on the processing

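The direction of the receptor calls turned with the choice of scale. With scaling to the 18 pan-T genes, 1 receptor was higher and 7 lower in tumor pTreg than tumor tTreg; 6 were higher and 3 lower in tumor pTreg than in LN Treg; and 7 were higher and 1 lower in tumor tTreg than in LN Treg. With scaling to 4 CD3 genes the counts were 1 and 8, 6 and 3, and 7 and 1. Log2 fold changes that changed sign are given next, with the pan-T value first and the CD3 value second. For tumor pTreg against tumor tTreg they were -2.56 and -2.80 for Ccr2, -0.90 and -1.14 for Ccr4, -1.27 and -1.50 for Ccr6, -2.79 and -3.03 for Ccr7, -0.58 and -0.82 for Ccr8, -0.88 and -1.11 for Cxcr3, -2.68 and -2.92 for Cxcr4, and -0.55 and -0.78 for Cxcr5. For tumor pTreg against LN Treg they were 0.27 and 0.26 for Ccr4, 1.64 and 1.63 for Ccr8, 2.15 and 2.14 for Cxcr3, and 1.30 and 1.29 for Cxcr4. For tumor tTreg against LN Treg they were 5.26 and 5.49 for Ccr2, 1.17 and 1.39 for Ccr4, 0.89 and 1.11 for Ccr7, 2.22 and 2.45 for Ccr8, 3.03 and 3.25 for Cxcr3, 3.98 and 4.21 for Cxcr4, and 2.42 and 2.64 for Cxcr6. These scales differ from the whole-library scale by close to a constant per comparison. For the pan-T genes it is the shift of the median given above. For the CD3 genes the median shifts were -3.56, 2.19 and 5.76 in the same order of comparisons.

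Testing against a log2 fold change of at least 1 left 5 receptors called in tumor pTreg against LN Treg, 1 of them higher, in place of 8 and 2 (Ccr2, Ccr8 and Cxcr4 were lost). It left 6 of 9 in tumor pTreg against tumor tTreg, without Ccr2, Ccr7 and Cxcr4, and 8 of 9 in tumor tTreg against LN Treg, without Ccr2. The share of all genes called in this way was not counted. Under the 24 other settings together 647 of 648 receptor calls kept their direction and side of the threshold. The exception was Cxcr3 in tumor pTreg against LN Treg, which was called with library totals in place of TMM factors (log2 fold change -0.16, adjusted p = 0.0173), where its adjusted p over these settings ran from 0.0173 to 0.896. With any 1 library left out, 9, 8 and 9 receptors were called in the 3 comparisons, as with all libraries. With the replicate number as a block the counts were again 9, 8 and 9, and no call changed. Same-numbered libraries did not deviate together (r of -0.069 to 0.065 over 11053 genes), so the numbers are not read as pairs. Of 27 group shares 20 moved by more than 1 SD when computed from expected counts in place of FPKM, where Cxcr4 took 33.9% in tumor pTreg, 51.1% in tumor tTreg and 31.0% in LN Treg and Ccr7 took the largest share in LN Treg, 36.3%. Few counts limit the precision of Ccr6 and Cxcr5 in tumor tTreg, with 1 to 11 a library.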
